A study of Homo sapiens with 6 samples.

Results

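The genes described here encode the protein subunits of the mitochondrial ribosome. They were taken from the gene-level expression table as every row whose symbol is MRPL or MRPS followed by a number and at most 1 letter from A to C, with DAP3, PTCD3 and AURKAIP1 added, small-subunit proteins that carry other names. This gave 87 rows with 80 symbols, of 63563 genes in the table: 51 rows of the large subunit, 35 of the small subunit, and MRPS36, whose product is now placed in the α-ketoglutarate dehydrogenase complex and was assigned to neither. The rule itself reads names and no measured value.

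The samples are RKO cells, a human colorectal cancer line. In the 3 OVER43 libraries the cells had been stably transfected with the cDNA of connexin 43 (Cx43, gene symbol GJA1, a gap junction protein) in the expression vector pcDNA3.1, and in the 3 EV libraries they carried the empty vector; the EV samples have the genotype label WT. All 6 are poly(A) RNA libraries of cells grown in the same serum-containing medium, and no treatment beyond the transfection is given. The labels do not say whether either line is 1 clone or a pool, or whether the replicates are separate cultures, so p-values measure the spread between these samples, and a difference between the transfected lines that does not come from Cx43 cannot be told apart from one that does. The columns of the tables are numbered 0 to 2, and these numbers name the libraries below.

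Mitochondria keep a small genome that encodes core subunits of the respiratory chain and of the ATP synthase, and a dedicated ribosome translates those mRNAs inside the organelle. Its RNAs come from mitochondrial DNA, whereas its proteins are encoded in the nucleus, made in the cytosol and imported. Some have counterparts in bacterial ribosomes and others occur only in mitochondria. Loss of single subunits causes inherited respiratory chain disease, and many tumour cells depend on mitochondrial translation.

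The targeted gene matched the labels. GJA1 stood at 23.2, 26.0 and 24.9 FPKM (fragments mapped to a gene, scaled for transcript length and library depth) in the OVER43 libraries, against 0.300, 0.351 and 0.394 FPKM in the EV libraries, a 71.0-fold difference. Library depth, estimated from the step between low FPKM values, was 46.5 to 49.1 M fragments (M for the SI prefix mega) in the OVER43 libraries and 42.3 to 51.9 M fragments in the EV libraries. Of 8 epithelial markers, KRT18 averaged 148 FPKM in OVER43 cells and 79.4 FPKM in EV cells and EPCAM 20.5 FPKM in OVER43 cells and 12.5 FPKM in EV cells (both called higher), whereas KRT8 averaged 24.6 FPKM in OVER43 cells and 58.7 FPKM in EV cells (called lower) and CDX2 6.21 FPKM in OVER43 cells and 7.78 FPKM in EV cells (not called). CDH1, VIL1 and KRT19 were under 1 FPKM and KRT20 was listed at 0, and the epithelial sum was 199 to 204 FPKM in OVER43 cells and 156 to 163 FPKM in EV cells. The 8 fibroblast markers and the 5 endothelial markers were each under 1 FPKM, and of the 7 leukocyte markers CD68 alone was above 1 FPKM with PTPRC and CD3E at 0; their sum was 368 to 387 FPKM in OVER43 cells and 405 to 421 FPKM in EV cells. The fibroblast sum was 0.545 to 0.751 FPKM in OVER43 cells and 0.863 to 1.35 FPKM in EV cells, and the endothelial sum 0.260 to 0.437 FPKM in OVER43 cells and 0.120 to 0.186 FPKM in EV cells. Of 12205 genes tested with limma on log2(FPKM + 1), 28.4% were called higher in OVER43 and 17.5% lower at an adjusted p under 0.05, and the median log2 fold change over all of them was 0.05.

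Promoters of 4 of these genes are shown because their genes gave the 3 largest rises and the largest fall among the members. Each is the 250 bases before the RefSeq start on GRCh38.p14, written in the direction of transcription: MRPL52 at chr14:22829637-22829886 on the plus strand, MRPL54 at chr19:3762432-3762681 on the plus strand, MRPL27 at chr17:50373185-50373434 on the minus strand and MRPL43 at chr10:100987498-100987747 on the minus strand. Capitals mark matches, on either strand, to the core motifs of 3 factor families known for promoters of nuclear genes for mitochondria: CCGGAA of the ETS family, to which GABPA belongs, GCATGCG of NRF1 and ATGGCGG of YY1.
MRPL52: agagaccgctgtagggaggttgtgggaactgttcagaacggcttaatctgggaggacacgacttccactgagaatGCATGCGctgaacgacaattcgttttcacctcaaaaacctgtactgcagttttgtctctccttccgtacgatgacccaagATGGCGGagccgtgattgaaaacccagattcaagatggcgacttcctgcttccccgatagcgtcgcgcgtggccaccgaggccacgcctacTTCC
MRPL54: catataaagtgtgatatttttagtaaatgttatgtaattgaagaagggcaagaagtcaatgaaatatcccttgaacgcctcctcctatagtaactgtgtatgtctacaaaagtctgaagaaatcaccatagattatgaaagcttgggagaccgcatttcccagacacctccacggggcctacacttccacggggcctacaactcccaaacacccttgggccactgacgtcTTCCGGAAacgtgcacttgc
MRPL27: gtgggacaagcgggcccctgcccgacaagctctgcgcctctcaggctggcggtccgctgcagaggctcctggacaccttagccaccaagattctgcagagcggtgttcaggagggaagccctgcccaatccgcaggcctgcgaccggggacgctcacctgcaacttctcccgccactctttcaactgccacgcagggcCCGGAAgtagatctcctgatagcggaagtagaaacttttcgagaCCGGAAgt
MRPL43: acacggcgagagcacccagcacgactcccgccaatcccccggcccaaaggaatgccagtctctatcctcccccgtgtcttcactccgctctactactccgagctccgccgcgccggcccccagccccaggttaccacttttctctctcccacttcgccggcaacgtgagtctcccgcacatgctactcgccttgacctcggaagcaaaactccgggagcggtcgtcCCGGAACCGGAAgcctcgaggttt
The promoter of MRPL52 held 1 match to each of the 3 motifs, and its ETS match runs past the start, so that the first 4 of its letters appear. The promoters of MRPL54, MRPL27 and MRPL43 each held 2 ETS matches; those of MRPL54 overlap on opposite strands. An ETS match was thus present in the gene that fell and in the 3 that rose. Any link between the matches and the direction of change was not tested.

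A RefSeq promoter of 250 bases before and 50 after the start was found for 69 of the 78 symbols with a tested row. The ETS motif was present in 39 of these 69 (56.5%), against 17.6% of all 27058 promoters in that table. The YY1 motif was present in 24 (34.8%, against 5.72%) and the NRF1 motif in 6 (8.7%, against 4.06%). The E-box CACGTG, the core bound by MYC with MAX, was present in 5 (7.25%, against 7.38%). Within the members, ETS matches were in 53.5% of the 43 promoters of members called higher and in 61.5% of the 26 others. YY1 matches were in 34.9% and 34.6%, and a difference between these shares was not tested. The 27058 promoters include those of genes not tested here. Shares among tested genes or genes of like level were not counted, so these shares are not read as particular to the members. A match is a run of letters and no measurement of binding.

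Most members stood higher in OVER43, by small steps. Of the 87 rows, 79 reached at least 1 FPKM in at least 3 libraries and were tested. Their mean levels ran from 1.28 to 161 FPKM in OVER43 cells and from 1.11 to 128 FPKM in EV cells. Of these 79 rows, 49 were called higher in OVER43 (62%, against 28.4% of all tested genes) and 7 lower (8.86%, against 17.5%). Of the 79 rows, 68 (86.1%) had a positive log2 fold change, against 57.1% of all tested genes. The median of the 79 rows was 0.23. Among the 3612 genes of like level (mean of 20.5 to 104.6 FPKM, the range of the middle 80% of the members), 43.6% were called higher and 14.9% lower, and the median was 0.13. The 3 OVER43 libraries lay above all 3 EV libraries for 56 of the 79 rows, where 33.9% of all tested genes did so, and below them for 6, where 22.4% of all tested genes did so.

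The summed FPKM of the 79 tested rows was 4825, 4825 and 5063 in the OVER43 libraries, against 4173, 4204 and 4065 in the EV libraries. This was 0.870%, 0.871% and 0.894% of all FPKM in OVER43 cells and 0.820%, 0.828% and 0.813% in EV, so the groups did not overlap by either measure. In bulk RNA, more cells with a high level and more RNA per cell cannot be told apart. OVER43 library 2 had the highest value of its group in 49 of the 79 rows (62%), where it did so for 38.9% of all tested genes, and EV library 2 had the lowest of its group in 49 (62%), where it did so for 39% of all tested genes. Without both libraries, an alternative added after the data were seen, 39 rows were called higher and 5 lower and the median was 0.18, where 23.9% of all genes were called higher and 13.4% lower with a median of 0.05.

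**Figure D1:**
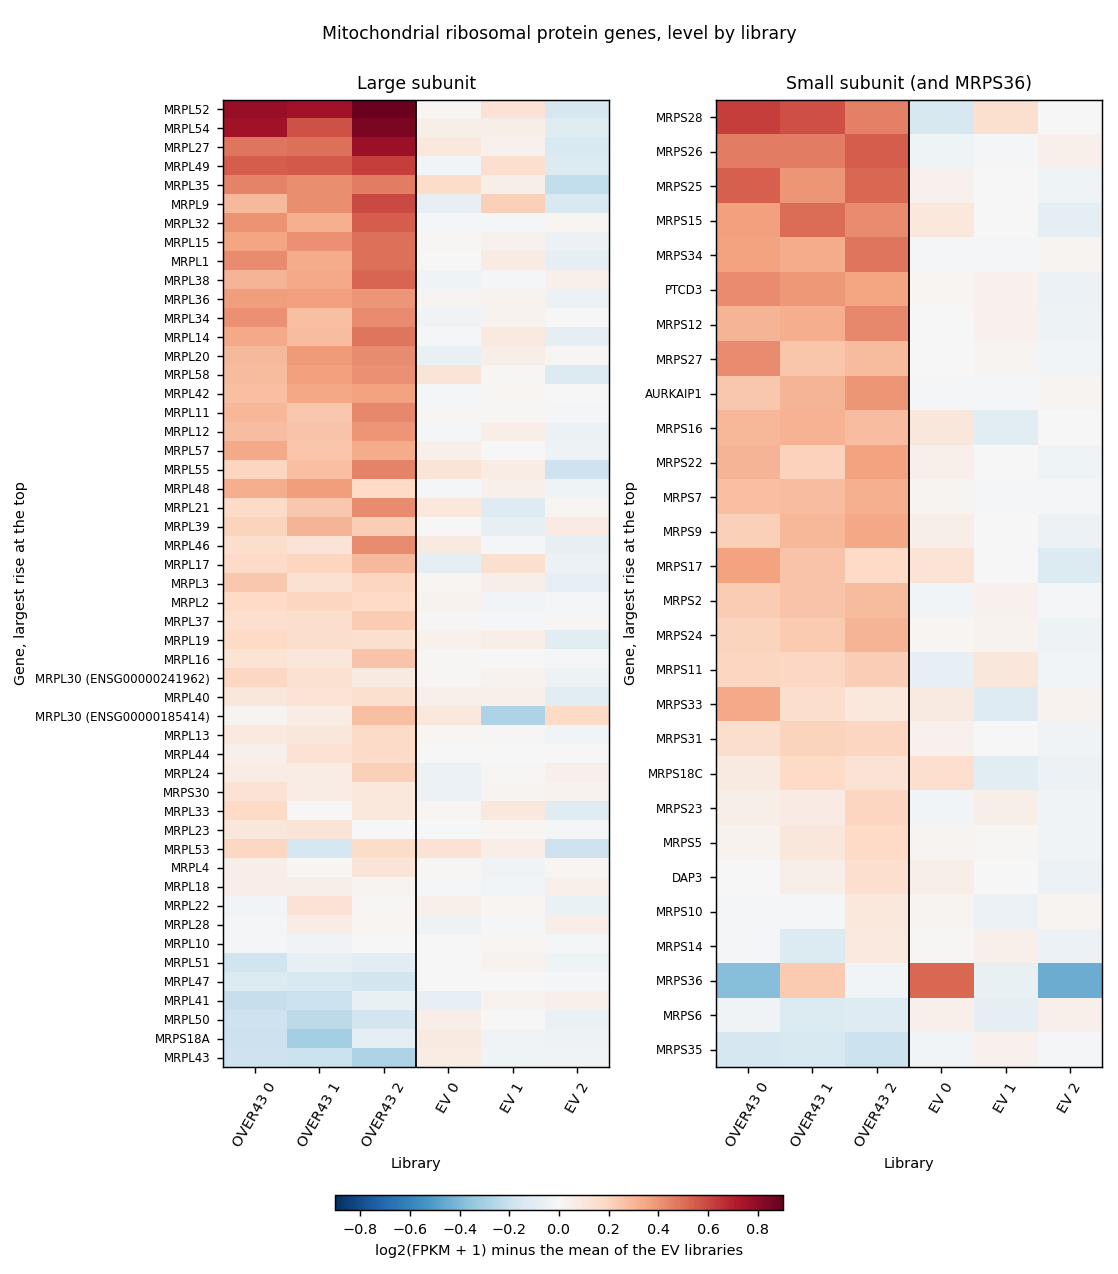
Level of each tested row in each library, as log2(FPKM + 1) minus the mean of the 3 EV libraries, with the large subunit on the left and the small subunit with MRPS36 on the right, rows ordered by fold change. The 3 OVER43 columns are red in most rows, and library 2 has the highest of the 3 OVER43 values in 49 of 79; the rows at the foot of each panel, from MRPL51 and MRPS35 to MRPL43, are blue.

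These counts depend on how the libraries are scaled to each other. The deposited FPKM sum to more in OVER43 than in EV, and scaling every library to the same sum moved the median of all tested genes to -0.08. With that scaling 34 members were called higher and 9 lower, where 15.3% of all genes were called higher and 29.3% lower. With no filter on low values 35 members were called higher and 3 lower (all genes 7.43% and 5.11%). With TMM scaling 41 members were called higher and 8 lower (all genes 23% and 21.1%), and with quantile scaling 32 and 11 (all genes 20.9% and 20%). The members' median stayed above that of all genes by 0.17 under TMM, 0.10 under quantile and 0.17 under equal sums, against 0.18 as deposited. Genes of like level, which had a median of 0.13 as deposited, were not examined under the other scalings. The fold change was positive in 64 of the 79 members under TMM, 52 under quantile and 50 under equal sums, against 68 as deposited. Of all tested genes it was positive in 50.7% under TMM, 52.4% under quantile, 39.1% under equal sums and 57.1% as deposited. Of the 49 members called higher, 31 kept the call under these 3 scalings, and all 7 called lower kept theirs.

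**Figure D2:**
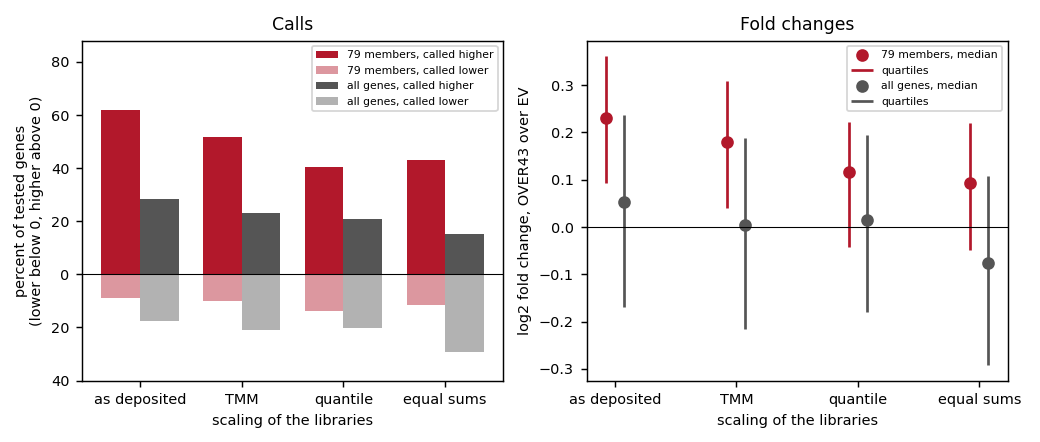
Left, percent of tested rows called higher (above 0) and lower (below 0) for the 79 members and for all tested genes under each scaling of the libraries; right, the median log2 fold change with its quartiles. The members' median lies between 0.09 and 0.23 under the 4 scalings, whereas that of all genes runs from -0.08 under equal sums to 0.05 as deposited.

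All 51 rows of the large subunit, which carries the peptidyl transferase centre, were tested. Of these, 31 (60.8%) were called higher and 6 (11.8%) lower with a median of 0.19. The counts were 25 (49.0%) and 6 (11.8%) with TMM, 20 (39.2%) and 9 (17.6%) with quantile and 19 (37.3%) and 7 (13.7%) with equal sums. Of all tested genes, 28.4% were called higher and 17.5% lower as deposited, and of those at the members' levels 43.6% and 14.9%. The shares of all tested genes were 23% and 21.1% with TMM, 20.9% and 20% with quantile and 15.3% and 29.3% with equal sums. MRPL52, a protein found only in mitochondrial ribosomes, had the largest rise. It stood at 159, 155 and 170.3 FPKM in the OVER43 libraries, against 92.8, 100.4 and 82.4 FPKM in the EV libraries. Every OVER43 library thus lay above every EV library, at a log2 fold change of 0.81 ± 0.07 (SE; limma adjusted p = 6.92e-05). By the deposited loci, which are hg19 positions, the gene spans 23299087 to 23304246 of chromosome 14. The 20 nearest tested genes on either side of a gene, fewer near a chromosome end, are called its neighbours below. Those of MRPL52 had a median change of 0.37 on the log2 scale, and all chromosome 14 genes one of 0.43, with 68.2% of them called higher.

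MRPL54, another protein specific to mitochondria, lies on chromosome 19 at 3762661 to 3768573 (hg19) among neighbours with a median of 0.03. It stood at 37.5, 33.0 and 40.004 FPKM in OVER43 cells and at 22.7, 22.7 and 20.1 FPKM in EV cells (change 0.72 ± 0.08 on the log2 scale, limma adjusted p = 0.000219). MRPL27, whose bacterial counterpart reaches into the peptidyl transferase centre, stood at 60.7, 61.4 and 74.6 FPKM in OVER43 cells and at 46.2, 44.5 and 39.3 FPKM in EV cells (0.58 ± 0.09). Library 2 of OVER43 was the highest for both genes and library 2 of EV the lowest. MRPL49, without a bacterial counterpart, stood at 49.6, 49.8 and 52.3 FPKM in OVER43 cells and at 33.0, 37.5 and 30.7 FPKM in EV cells (0.57 ± 0.07); 2 named pseudogenes could share its reads.

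A further 4 large-subunit proteins with bacterial counterparts completed the large-subunit genes among the 12 largest rises. MRPL35 averaged 43.6 ± 0.599 FPKM in OVER43 cells and 32.0 ± 4.43 FPKM in EV cells (SD, n = 3 each; 0.44 on the log2 scale; not called without a filter on low values). MRPL9 averaged 64.1 ± 7.03 FPKM in OVER43 cells and 47.2 ± 6.41 FPKM in EV cells (0.43), with a wide spread but no overlap; its call was lost without a filter (adjusted p = 0.113) and without both libraries 2 (adjusted p = 0.072). MRPL32, which the mitochondrial m-AAA protease cleaves before assembly, averaged 63.8 ± 5.17 FPKM in OVER43 cells and 47.2 ± 0.434 FPKM in EV cells (0.42). MRPL15 averaged 109.6 ± 5.41 FPKM in OVER43 cells and 81.6 ± 2.82 FPKM in EV cells (0.42). The 2 most abundant large-subunit genes after MRPL52 moved less. MRPL20 averaged 133 ± 6.22 FPKM in OVER43 cells and 103 ± 4.21 FPKM in EV cells (0.37), among chromosome 1 neighbours with a median of 0.21. MRPL37 averaged 130.4 ± 4.02 FPKM in OVER43 cells and 115 ± 1.34 FPKM in EV cells (0.18), a call that quantile scaling and equal sums ended.

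Of the 35 small-subunit rows, 27 were tested, and 18 of them (66.7%) were called higher and 1 (3.70%) lower with a median of 0.27. TMM gave 16 (59.3%) and 2 (7.41%), quantile 12 (44.4%) and 2, and equal sums 15 (55.6%) and 2. The shares of all tested genes were 28.4% and 17.5% as deposited, 23% and 21.1% with TMM, 20.9% and 20% with quantile and 15.3% and 29.3% with equal sums. Of genes at the members' levels, 43.6% were called higher and 14.9% lower as deposited. The small subunit binds the mRNA and decodes it. MRPS28 had its largest rise. It stood at 101, 97.8 and 89.6 FPKM in the OVER43 libraries, against 58.9, 72.1 and 64.9 FPKM in the EV libraries (change 0.55 ± 0.07 on the log2 scale, limma adjusted p = 0.000626). Here, unlike in MRPL27 and MRPL54, library 2 was the lowest of the OVER43 group.

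MRPS26 and MRPS25, small-subunit proteins specific to mitochondria, followed. MRPS26 stood at 115, 115 and 122 FPKM in OVER43 cells and at 80.9, 82.7 and 86.0 FPKM in EV cells (0.49 ± 0.04, limma adjusted p = 5e-05). MRPS25 averaged 40.4 ± 2.14 FPKM in OVER43 cells and 28.5 ± 0.815 FPKM in EV cells (0.49). MRPS15, with a bacterial counterpart, averaged 90.7 ± 4.12 FPKM in OVER43 cells and 67.0 ± 4.45 FPKM in EV cells (0.43). In each of these the groups were separate by more than the SD within either.

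The most abundant member was MRPS2, the counterpart of a bacterial small-subunit protein. It stood at 150.0, 153 and 157 FPKM in OVER43 cells and at 126, 132 and 127 FPKM in EV cells (0.26 ± 0.03, limma adjusted p = 0.000471; not called with quantile scaling). Its neighbours on chromosome 9 had a median of -0.19, so the gene stood above a stretch in which most genes stood lower. MRPS34, in which mutations cause Leigh syndrome, stood at 144, 141 and 156 FPKM in OVER43 cells and at 110.4, 110.3 and 113 FPKM in EV cells (0.39 ± 0.04).

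The 3 members with other names did not move alike. AURKAIP1, first known as a partner of Aurora kinase A, stood at 138, 144 and 154 FPKM in OVER43 cells and at 115, 116 and 119 FPKM in EV cells (0.31 ± 0.04, limma adjusted p = 0.000708). The chromosome 1 neighbours of AURKAIP1 had a median of 0.19. PTCD3, a pentatricopeptide repeat protein at the mRNA entrance, stood at 58.9, 57.4 and 56.1 FPKM in OVER43 cells and at 44.3, 44.8 and 42.0 FPKM in EV cells (0.39 ± 0.04, limma adjusted p = 0.00022). DAP3, a GTP-binding protein also named for a part in cell death, stood at 82.5, 86.0 and 92.0 FPKM in OVER43 cells and at 86.1, 82.5 and 79.9 FPKM in EV cells. Its groups overlapped, and it was not called (0.07 ± 0.05, limma adjusted p = 0.305).

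**Figure D3:**
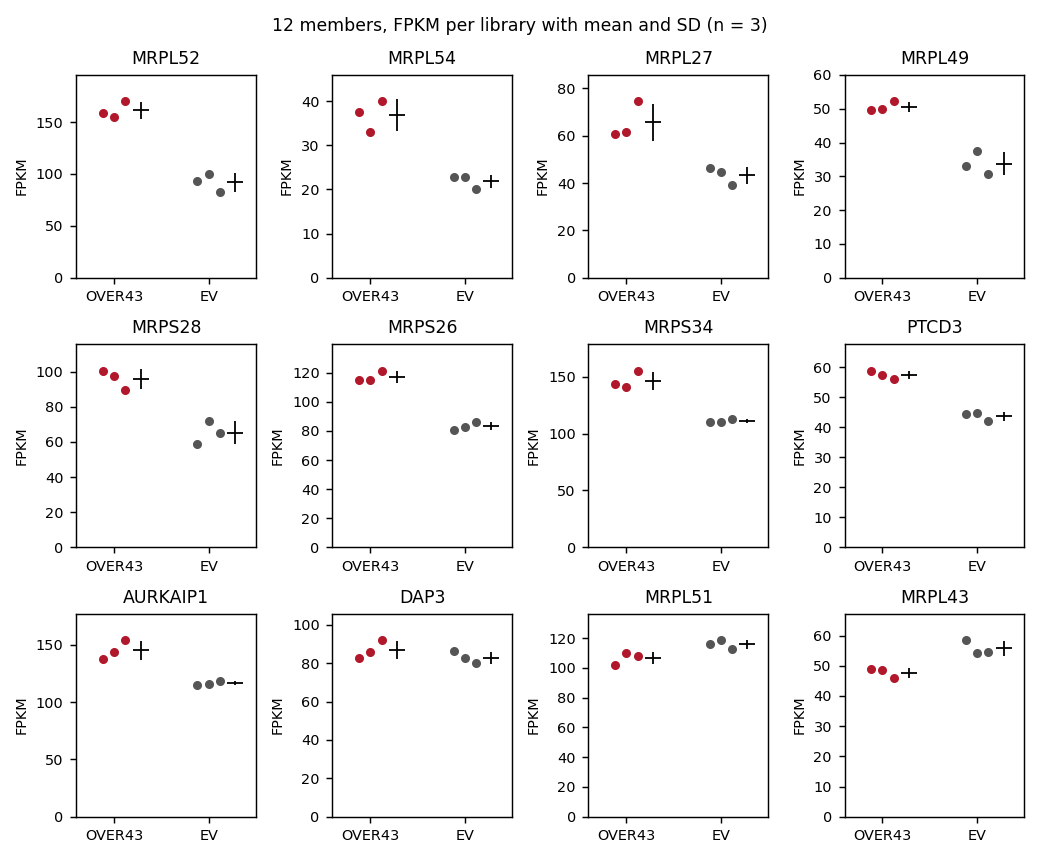
FPKM per library (points) with the mean and SD of 3 libraries (cross) for 12 members, OVER43 left of EV in each panel, axes from 0. The groups are separate in each panel except that of DAP3, where 82.5 to 92.0 FPKM in OVER43 overlaps 79.9 to 86.1 FPKM in EV cells; MRPL51 and MRPL43 are the 2 panels with OVER43 below EV.

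Falls were fewer and smaller. Of the members, 7 were called lower, 6 of the large subunit and MRPS35 of the small subunit, and MRPL41 among them had overlapping groups (85.7, 86.3 and 94.6 FPKM in OVER43 cells, against 94.0, 101 and 102 FPKM in EV cells; -0.15, neighbours -0.06). MRPL43, a protein specific to mitochondria, had the largest fall, with 48.8, 48.6 and 45.8 FPKM in OVER43 cells and 58.5, 54.2 and 54.6 FPKM in EV cells (-0.22 ± 0.05, limma adjusted p = 0.00578), although its chromosome 10 neighbours had a median of 0.11. MRPS18A, an S18-type protein that sits in the large subunit, averaged 29.7 ± 2.27 FPKM in OVER43 cells and 34.1 ± 1.69 FPKM in EV cells (-0.20). Its neighbours had a median of 0.13. MRPL47 averaged 37.9 ± 0.633 FPKM in OVER43 cells and 42.0 ± 0.242 FPKM in EV cells (-0.14, neighbours 0.05).

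The other 3 falls lay among genes that were lower as well. MRPL50 on chromosome 9 averaged 16.9 ± 0.468 FPKM in OVER43 cells and 19.5 ± 0.867 FPKM in EV cells (-0.19), where its neighbours had a median of -0.44. MRPS35 on chromosome 12 averaged 47.3 ± 1.03 FPKM in OVER43 cells and 53.0 ± 1.19 FPKM in EV cells (-0.16, neighbours -0.30). MRPL51 on chromosome 12 averaged 107 ± 4.13 FPKM in OVER43 cells and 116 ± 3.01 FPKM in EV cells (-0.12, neighbours -0.23). The part of these neighbourhoods in the members' values was not tested. Of the 7 falls, those of MRPL43 and MRPS35 kept their call in each of the 14 alternative fits; each of the others lost it in at least 1. MRPS18A lost it when OVER43 library 0 or 1 or any EV library was left out (limma adjusted p = 0.0505 to 0.117), and MRPL50 without library 0 or 1 of either group (0.0509 to 0.0716). MRPL51 lost it without libraries 0 or 2 of OVER43 or 0 or 1 of EV (0.0614 to 0.134), MRPL41 without libraries 0 or 1 of OVER43 or 1 or 2 of EV (0.0983 to 0.113), and MRPL47 without EV library 1 (0.0509).

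Over all 79 rows, 64 lay above the median of their neighbours, and the median difference over the 79 was 0.18. The share of all tested genes above their own neighbours was not counted, and the neighbours were not matched for level. Most rows had 40 neighbours, but MRPL41 had 25, MRPL39 28, MRPL28 31 and MRPL57 32. In 67 rows the median of the neighbours was between -0.15 and 0.15, and 42 of these 67 were called higher and 4 lower. In the 8 rows with neighbours above 0.15, 6 were called higher. In the 4 rows with neighbours below -0.15, 1 was called higher and 3 lower. The shares of all tested genes called in such neighbourhoods were not counted, so these counts are not read as particular to the members. Of all tested genes, 28.4% were called higher and 17.5% lower, and of those on chromosome 14, 68.2% and 6.03%. Leaving out chromosome 14, which holds 1 tested member, and chromosome 9, which holds 3, left 47 of 75 called higher and 5 lower, where 27.6% of the other genes were called higher and 16.5% lower.

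**Figure D4:**
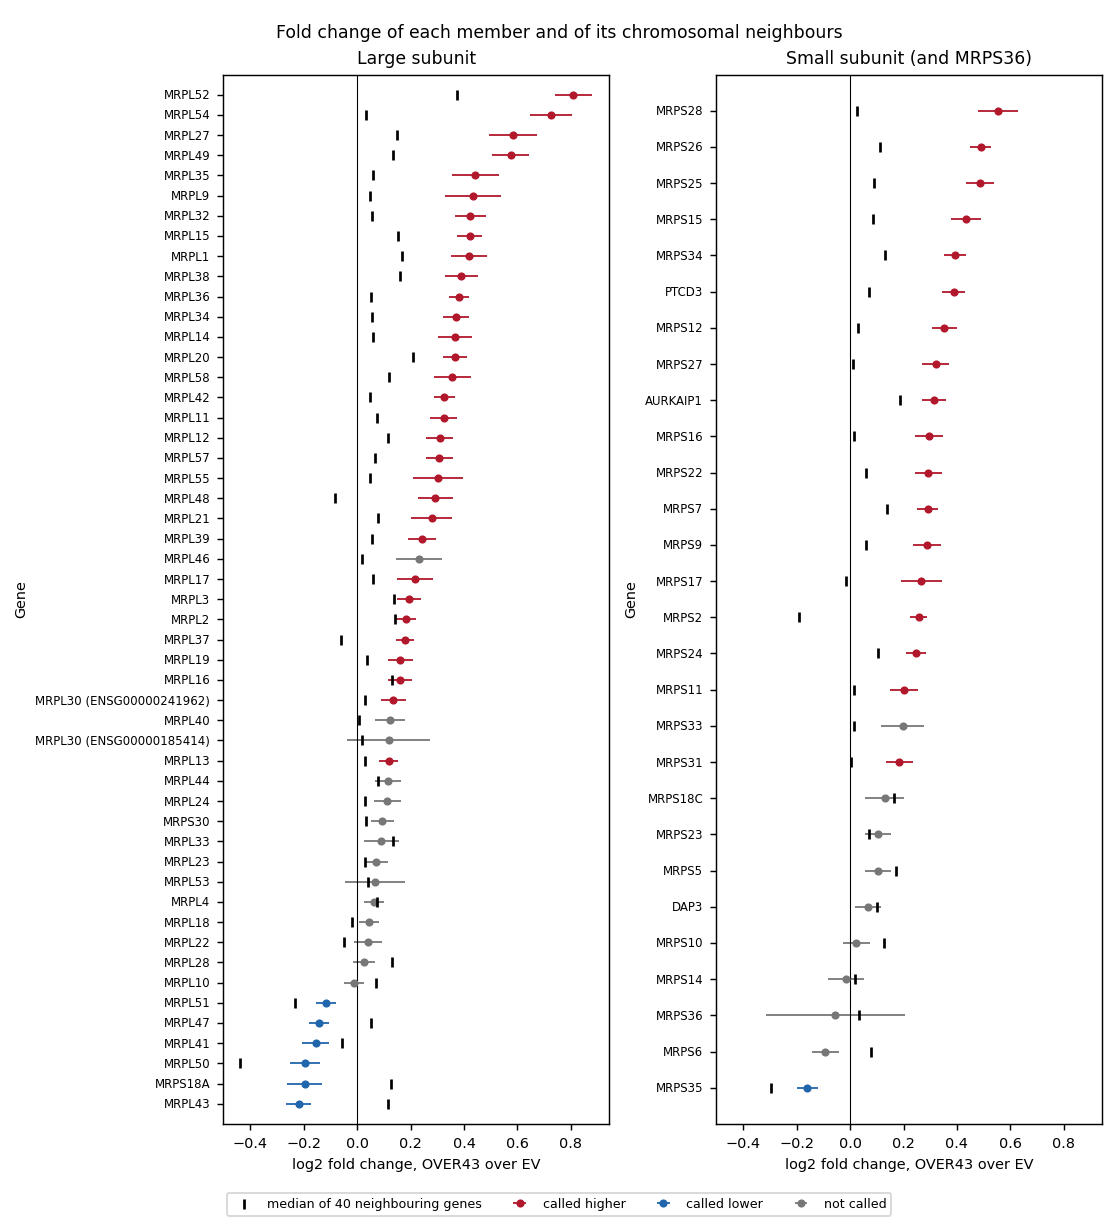
Log2 fold change of OVER43 over EV with its SE for each tested row (points: red called higher, blue called lower, grey not called). Black ticks mark the median of the 20 nearest tested genes on either side of each row, fewer near a chromosome end. Most red points lie to the right of their tick, with MRPL52 at 0.81 beside a tick at 0.37, and MRPL50, MRPS35 and MRPL51 are blue points to the right of ticks that lie lower still.

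Subunits inherited from bacteria and those specific to mitochondria gave like medians as deposited. Of the 47 tested rows classed as having a bacterial counterpart, 31 were called higher and 2 lower with a median of 0.22. Of the 31 classed as without one, 18 were called higher and 5 lower with a median of 0.24. MRPL55 (0.30, called higher) was counted in the first class, but its protein is specific to mitochondria. The counts and medians of both classes are therefore approximate. With quantile scaling the counts were 17 and 6 for the first class and 15 and 5 for the second, and with equal sums 20 and 4, and 14 and 5. Of all tested genes, 28.4% were called higher and 17.5% lower as deposited, 20.9% and 20% with quantile scaling and 15.3% and 29.3% with equal sums. The medians of the first and second class were 0.09 and 0.13 with quantile scaling, and 0.18 and 0.27 without both libraries 2. Whether the classes differ was not tested. The summed level of large-subunit rows was 1.74, 1.74 and 1.78 times that of small-subunit rows in the OVER43 libraries, against 1.81, 1.84 and 1.79 times in the EV libraries, and the groups did not overlap. Across the 79 rows, which share the same 6 libraries, the fold change had a Spearman correlation of -0.28 with transcript length, against -0.07 across 11647 tested genes, and of 0.16 with the mean level, against 0.28 across all tested genes.

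The other 8 rows could not be tested, and their low values need not mean low expression. MRPS18B has 7 rows: the one on chromosome 6 averaged 0.491 ± 0.0596 FPKM in OVER43 cells and 0.307 ± 0.109 FPKM in EV cells, and 6 rows on alternative copies of the region were listed at 0 in all libraries. No level of MRPS18B is read from these rows. The MRPS21 row lies on a patch scaffold at 0.0141 FPKM in OVER43 cells and 0.0180 FPKM in EV cells, and is not read either. MRPL30 has 2 tested rows in 1 locus that could share reads. The row ENSG00000241962 averaged 37.8 ± 1.40 FPKM in OVER43 cells and 34.3 ± 0.954 FPKM in EV cells and was called higher (limma adjusted p = 0.0417; 0.0603 to 0.138 without OVER43 library 0 or 1 or any EV library), but GENCODE release 29 gives it another gene name and places MRPL30 at ENSG00000185414, which averaged 1.28 ± 0.210 FPKM in OVER43 cells and 1.11 ± 0.342 FPKM in EV cells. Both are uncertain. MRPS36 stood at 7.39, 11.9 and 9.798 FPKM in OVER43 cells and at 14.6, 9.47 and 7.03 FPKM in EV cells, and its groups overlapped. In all, 35 of the 79 rows have a named pseudogene and 31 are alone in their deposited locus.

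The isoform table placed most of each member's level in 1 transcript. The leading spliced transcript held over 50% of the gene's FPKM in 68 of the 79 rows and over 90% in 31. Of 78 leading transcripts tested, 36 were called higher and 3 lower. The share among leading transcripts of all genes was not counted. Over all 239 spliced member transcripts tested, 47 were called higher and 4 lower, where 9.77% of all tested transcripts were called higher and 4.82% lower. The counts moved with the settings: 22 and 9 with quantile scaling (all transcripts 5.21% and 6.29%), 23 and 8 with equal sums (4.92% and 7.59%), and 30 and 6 with TMM (7.1% and 5.92%). With the filter at 5 FPKM, 50 of 135 member transcripts (37.0%) were called higher and 4 (2.96%) lower, where all transcripts had 25.8% and 9.52%. As deposited, no gene had transcripts called in both directions.

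MRPL54 was almost wholly 1 transcript, ENST00000330133, with 99.7% of the gene in OVER43 and 99.3% in EV (change 0.73 on the log2 scale, limma adjusted p = 0.00504). MRPL52 was spread over more: ENST00000556840 averaged 77.7 ± 2.96 FPKM in OVER43 cells and 46.7 ± 5.45 FPKM in EV cells, and ENST00000355151 averaged 24.4 ± 2.004 FPKM in OVER43 cells and 14.2 ± 0.426 FPKM in EV cells. Both transcripts of MRPL52 were called higher, so its rise was not that of a single isoform. In AURKAIP1 the leading transcript ENST00000378853 averaged 64.4 ± 8.77 FPKM in OVER43 cells and 43.8 ± 4.01 FPKM in EV cells and was called, whereas the next, ENST00000338338, averaged 45.6 ± 2.43 FPKM in OVER43 cells and 42.5 ± 2.20 FPKM in EV cells and was not. In MRPL43 the leading transcript ENST00000318364 averaged 33.1 ± 1.57 FPKM in OVER43 cells and 39.9 ± 0.877 FPKM in EV cells and was called lower. None of the tested transcripts of DAP3 was called.

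The table also has 1 entry per gene that spans the whole gene with its introns. For the 79 tested rows this entry held a median of 0.413% of the gene's FPKM and at most 9.61%. The OVER43 mean was above the EV mean in 38 of the 79 entries, and of the 8 that were high enough to test, limma called 0.

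In the authors' deposited table of Cuffdiff tests, 28 members are marked significant with OVER43 higher and 0 with OVER43 lower, where 11.7% and 9.64% of the 15897 genes tested there are so marked. All 28 are among the 49 called higher here.

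Among genes that work with the mitochondrial ribosome, more were called higher than lower in each list as deposited. The counts below stand against the 28.4% and 17.5% of all tested genes called higher and lower as deposited, 23% and 21.1% under TMM, 20.9% and 20% under quantile scaling, and 15.3% and 29.3% under equal sums, and no list was tested against these shares. Among the 3612 genes at the members' levels the shares as deposited were 43.6% and 14.9%. The lists were not matched to genes of their own level. The 27 assembly factors, which modify the ribosomal RNA or mature the subunits, had 15 called higher and 1 lower. C1QBP, a matrix protein that binds mitochondrial mRNA and ribosomes, averaged 385 ± 8.29 FPKM in OVER43 cells and 289 ± 6.65 FPKM in EV cells (log2 change 0.41), and the ribosomal RNA methyltransferases NSUN4 (0.44) and MRM3 (0.36) rose. TFB1M, which dimethylates the small ribosomal RNA, was the 1 that fell: it stood at 5.35, 4.64 and 4.82 FPKM in OVER43 cells and at 11.4, 11.1 and 9.86 FPKM in EV cells (-0.99 ± 0.08, limma adjusted p = 6.22e-05), a larger change than that of any member. With TMM this list had 10 higher and 1 lower, with quantile scaling 6 and 2, and with equal sums 5 and 4.

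Of 15 translation factors, 6 (40%) were called higher and 1 (6.67%) lower with a median of 0.12. The shares were 28.4% and 17.5% of all tested genes, and 43.6% and 14.9% of those at the members' levels. The counts of translation factors were 4 and 1 with TMM, 3 and 1 with quantile scaling, and 3 and 3 with a median of -0.02 under equal sums. OXA1L, the inner-membrane insertase for mitochondrial translation products, averaged 166 ± 3.55 FPKM in OVER43 cells and 89.2 ± 2.18 FPKM in EV cells (0.89, limma adjusted p = 1.2e-06). It lies near MRPL52 on chromosome 14, at 23171351 to 23241007 (hg19), where its neighbours had a median of 0.34. The initiation factor MTIF2 and TACO1, a translational activator of COX1, both rose (0.35 each), and the ribosome recycling factor MRRF on chromosome 9 fell (-0.26, neighbours -0.40). TUFM, the elongation factor that delivers aminoacyl-tRNA, averaged 235 ± 11.9 FPKM in OVER43 cells and 215 ± 4.03 FPKM in EV cells (0.12, limma adjusted p = 0.036). Of the 2 further ribosomal proteins whose names fall outside the rule, GADD45GIP1 was called higher (0.44) and CHCHD1 was not (0.08).

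Of 21 tested genes in the aminoacyl-tRNA synthetase list, 11 were called higher and 0 lower. They were led by CARS2 (0.49), SARS2 (0.47) and MARS2 (0.42), the enzymes for cysteine, serine and methionine. The list also holds 3 amidotransferase subunits that are not synthetases, GATB (0.38) and QRSL1 (0.25), both called higher, and GATC (not called). GARS (0.15, called higher) and KARS (not called) also encode the cytosolic enzymes. TMM gave 8 and 1, quantile scaling 10 and 3, and equal sums 6 and 3. Of 22 factors of mitochondrial DNA and RNA, 17 were called higher and 1 lower, and 12 and 1 with TMM, 10 and 1 with quantile scaling and 9 and 1 with equal sums. TFAM, which packages mitochondrial DNA and starts its transcription, averaged 57.5 ± 4.03 FPKM in OVER43 cells and 43.3 ± 2.06 FPKM in EV cells (0.40). FASTKD5, needed for processing of mitochondrial RNA, rose (0.49), as did 2 genes on chromosome 14, the mRNA-stabilising SLIRP (0.52, neighbours 0.35) and KIAA0391, the nuclease of mitochondrial RNase P (0.47 in the higher of its 2 rows, neighbours 0.39). MTPAP, the mitochondrial poly(A) polymerase, fell (-0.24, neighbours -0.20).

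Of 16 import and folding genes, 11 were called higher and 1 lower, and 10 and 1 with TMM, but 6 and 3 with quantile scaling and with equal sums. The outer-membrane channel TOMM40 (0.52) and the chaperonins HSPE1 (0.41) and HSPD1 (0.37) rose, and PMPCA, a subunit of the presequence peptidase on chromosome 9, fell (-0.44, neighbours -0.08). Of the 11 regulators, 6 were called higher and 0 lower; quantile scaling gave 5 and 1, and equal sums 3 and 1. MAX (0.56, neighbours 0.38) and YY1 (0.53, neighbours 0.50) are on chromosome 14, and without chromosomes 9 and 14 the list had 4 of 9 called higher. GABPB2 (0.54) and NRF1, at 10.1 ± 0.649 FPKM in OVER43 cells and 7.93 ± 0.418 FPKM in EV cells (0.31), also rose. MYC averaged 193 ± 7.27 FPKM in OVER43 cells and 187 ± 6.48 FPKM in EV cells (0.04, limma adjusted p = 0.429), and GABPA 9.48 ± 0.222 FPKM in OVER43 cells and 9.34 ± 0.630 FPKM in EV cells (0.02, limma adjusted p = 0.828); neither was called.

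Counts in the lists of mitochondrially encoded, respiratory chain and cytosolic ribosomal protein genes moved with the scaling. Of 7 mitochondrially encoded genes with an estimate, 6 were called higher, ND3 (0.46), ND1 (0.27) and COX2 (0.25) foremost, 6 were with TMM, 2 with quantile scaling and 3 with equal sums, and 0 were called lower by limma under any of these; the other 6 are listed at 0. Of 73 nuclear-encoded respiratory chain and ATP synthase genes, 41 were called higher and 7 lower with a median of 0.17, and 31 and 7 with TMM, but 17 and 16 with a median of -0.00032 under quantile scaling and 18 and 13 under equal sums. CYC1 (0.50), NDUFB8 (0.41) and, on chromosome 14, NDUFB1 (0.41, neighbours 0.42) had the largest rises, and NDUFA8 on chromosome 9 (-0.42, neighbours -0.40), ATP5G2 on chromosome 12 (-0.41, neighbours -0.15) and NDUFB3 (-0.24) the largest falls. Of 71 cytosolic ribosomal protein genes, 57 were called higher and 4 lower with a median of 0.15, and 39 and 6 with TMM, but 7 and 19 with a median of -0.01 under quantile scaling and 18 and 20 under equal sums. RPS27 (0.33) and RPS27L (0.29) rose, the row of RPS19 did too (1.19) at a level of only 4.34 FPKM in OVER43 cells and 1.43 FPKM in EV cells, and RPL35 on chromosome 9 (-0.28, neighbours -0.37), RPL41 on chromosome 12 (-0.19, neighbours -0.28) and RPL37A (-0.12, neighbours 0.07) fell.

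**Figure D5:**
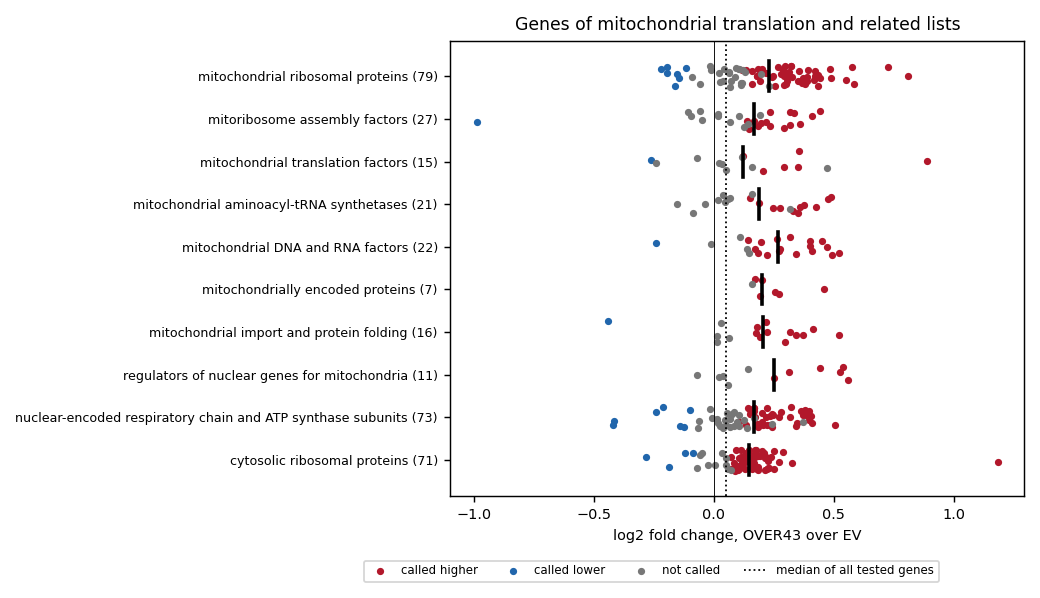
Log2 fold change of OVER43 over EV for each tested gene of each list (points, coloured by call), with the list's median (black bar), the median of all tested genes (dotted line) and the number of genes in brackets. As deposited, each list's median lies between 0.12 and 0.27, to the right of the dotted line at 0.05; under quantile scaling those of the respiratory chain and cytosolic ribosomal protein lists were just below 0, and under equal sums that of the translation factors.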

How the data were processed

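Poly(A) RNA of RKO cells was sequenced in 3 OVER43 and 3 EV libraries. The authors' deposited gene and isoform tables hold FPKM per library and per group, made with Cuffdiff per the submitters' processing notes (version, aligner and strand setting not given in the sources used here). The same deposited tables give a log2 fold change of EV over OVER43, the Cuffdiff test statistic (a score) and p-values with q-values, per the file headers. The notes name hg38, but the loci are hg19 positions and are given as such. GENCODE 29 supplied lengths and transcript types, and the promoters are from RefSeq.

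From the FPKM, limma 3.58.1 in R 4.3.3 (trend and robust options, two-sided) was fitted to log2(FPKM + 1) of all genes that reached 1 FPKM in 3 or more libraries, with Benjamini-Hochberg adjustment over all genes tested and a threshold of 0.05; 19 genes without an estimate were left out. The same fit was made on the isoforms. Fold changes are on the log2(FPKM + 1) scale, which understates those of low genes. The fit was tested on simulated data. Tables were handled with Python 3.11.15, pandas 2.3.3 and numpy 2.4.6. A column number, 0 to 2, names a library of its group and is not the label's number, 1 to 3. Depth was estimated from the steps between low FPKM, of which 69.1% to 71.1% per library lay within 0.1 of a whole number of fragments, too few for a count test. Libraries of a group were not copies of each other.

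The members and gene lists were chosen with earlier results of these data known. Named genes are up to 12 of the largest rises and of the largest falls among called members whose groups do not overlap (12 rises and 6 falls), the 6 highest by mean FPKM, those with a mean under 1 FPKM, DAP3, PTCD3 and AURKAIP1, up to 3 called genes per list and direction, and MYC, NRF1, GABPA, YY1, TFAM, TUFM and C1QBP; MRPL41, MRPL30, MRPS36 and the transcripts were named after their values were seen. The 14 alternatives were 3 scalings, 2 filters, a pseudocount of 0.1, a replicate block, leaving out each library, and, added after the data were seen, leaving out both libraries numbered 2.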

Additional observations from a re-analysis of the deposited data

How the results depend on the processing

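The fold changes are small, so the scaling decides many calls, and 29 of the 49 members called higher kept that call in all 14 alternatives, as did 2 of the 7 called lower. Quantile scaling gave 32 members called higher, 11 lower and 20 higher in the large subunit; equal sums and no filter each gave 19 higher in the large subunit, and no filter gave 3 lower. The median log2 fold change of the members was 0.18 under TMM, 0.12 under quantile scaling, 0.093 when sums were made equal and 0.18 without both libraries 2. Leaving out 1 library gave 43 to 46 members called higher, 2 to 6 lower and a median of 0.206 to 0.244 (all genes 24.4% to 26.4% higher and 13.9% to 15.7% lower). Among members called as deposited or under the alternative, the fold change turned negative with quantile scaling for MRPL3 (-0.0057), MRPL37 (-0.016), MRPL16 (-0.015), MRPL13 (-0.080), MRPL4 (-0.14) and MRPL28 (-0.16), and with equal sums for MRPL13 (-0.023) and the MRPL30 row ENSG00000241962 (-0.0038); MRPL4 and MRPL28 were then called lower (limma adjusted p = 0.0126 and 0.0211). Where 51 of 239 member transcripts were called as deposited, 31 of 239 were with quantile scaling, 31 of 238 with equal sums, 12 of 493 with no filter (all transcripts 0.841% higher and 0.565% lower), 14 of 214 without both libraries 2 (4.28% and 1.56%), and 27 to 34 when 1 library was left out. The cause of these shifts was not tested. MRPL41, MRPL47, MRPL50, MRPL51 and MRPS18A each lost their lower call when at least 1 library was left out.

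Column numbers did not pair the libraries: deviations from the group means correlated at 0.017, -0.091 and 0.029 between libraries of the same number. With a replicate block 46 members were called higher and 6 lower (all genes 27.1% and 16.5%), and 20 of 239 transcripts were called (all transcripts 4.42% higher and 1.81% lower).

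Without a filter on low values each pathway list had fewer calls, for example 9 assembly factors higher and 1 lower. Depth is an estimate and gene-level FPKM carry no counts, so no counting interval is given.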
